A study of Mus musculus with 2 samples.

Results

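A class of adenosines that miss the canonical m6A motif at a single base was examined in neonatal mouse brain. These sites have the sequence D-Y-A-C-H, where D is A, G or T, Y is C or T, A is the listed adenosine and H is A, C or T. They would belong to the DRACH motif (R is A or G) if the base just before the adenosine, position -1, were a purine. The 5 bases were read on the strand of each site from GRCm38, and the rule gives 18 possible 5-mers. Of the 219409 sites listed in at least 1 of the libraries, 13691 (6.24%, 95% Wilson interval 6.14 to 6.34) belonged to the class. By comparison, 97387 sites had a DRACH 5-mer, 3007 failed the motif only through a G at the last base (DRACG) and 2781 only through a C at the first base (CRACH). The class therefore made up 11.2% of the 122022 sites outside DRACH. The cerebellum library held 4352 members among 79355 sites and the cerebrum library 11449 among 188295. Only 2110 members were listed in both, 2242 in cerebellum alone and 9339 in cerebrum alone.

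The lists came from GLORI, in which glyoxal and nitrite convert unmethylated adenosine to inosine, read as G. An A that is still read as A is taken as m6A. An unmethylated adenosine left unconverted would be read the same way, and whether listed sites include such adenosines was not tested. Both samples were GLORI-treated poly(A) RNA of an F1r female mouse at P0, that is, the offspring of a C57BL/6J (C57) mother and a PWK/PhJ (PWK) father, and they differed in tissue, cerebellum against cerebrum. There was 1 library per tissue, so no difference between tissues has a replicate check and none was tested. The lists hold positions without methylation rates, read numbers or allele labels, so depth is unknown and an unlisted adenosine can be unmethylated, not expressed or thinly covered. In whole tissue, fewer cells of a type and less RNA per cell cannot be told apart. The tissue labels were checked on marker genes. Tbr1, a transcription factor of cortical neurons, had 0 listed sites in cerebellum and 20 in cerebrum. En2, a hindbrain transcription factor, had 9 in cerebellum and 0 in cerebrum. Each forebrain marker read had more sites in cerebrum, though Lhx2 had 8 and 11. The cerebrum list was also longer as a whole, with 188295 sites against 79355. Among the hindbrain markers, En1, Barhl1 and Lhx1 had more in cerebellum, like En2. Zic1 (19 and 22), Zic2 (9 and 10) and Zic4 (4 and 14) had more in cerebrum. Gbx2 had 3 in each, and Atoh1, Ptf1a, Pax2 and Hoxb4 had none.

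m6A is placed on nascent mRNA by a writer complex in which METTL3 is the catalytic subunit and METTL14 helps to bind the RNA at DRACH motifs. Exon junction complexes keep the writer away from the ends of exons, which leaves m6A dense in long internal exons and around the stop codon. YTH-domain proteins read the mark, and m6A shortens the life of many mRNAs in the developing brain.

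The following sites show what members look like. The first set holds, for each of the most frequent member 5-mers that had one, the shared site within 200 nt downstream of a stop codon in the gene with the most listed sites. Each sequence runs 5′ to 3′ on the transcribed strand of GRCm38, the member 5-mer is in capitals and the listed adenosine is its middle base. All were listed in both libraries.
Zfp292, chr4:34804940-34804960, minus strand, 11 nt after the stop codon: taactcatGTACTataaatac
Sec11a, chr7:80915652-80915672, minus strand, 192 nt after the stop codon: tggagtgcACACAaggggact
Zfp462, chr4:55081012-55081032, plus strand, 149 nt after the stop codon: ttttcaaaGCACTggtacctg
Ntrk3, chr7:78192523-78192543, minus strand, 26 nt after the stop codon: aagcatttATACTctgttgcc
Ptpn4, chr1:119659665-119659685, minus strand, 156 nt after the stop codon: ttaaaaagTCACTcaaaacct
All 5 lie in the last exon, in the 3′ UTR. The Zfp292, Sec11a and Ptpn4 sites have a listed DRACH adenosine 7 or 8 nt away, and the Zfp292 site also carries the A at -4 and the T at +4 described below.

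A second set shows the shared members of Ptprz1, the gene with the most of them, which encodes a receptor tyrosine phosphatase of glia and their progenitors. All 7 lie on the plus strand in the coding sequence of exon 12 of 30.
Ptprz1, chr6:23000694-23000714: atgcatgcATACTcttcgggg
Ptprz1, chr6:23000743-23000763: cccaccacGTACCcactgttt
Ptprz1, chr6:23001944-23001964: tttctcgaGCACTgagatttc
Ptprz1, chr6:23001959-23001979: gatttctaTTACTgataaggt
Ptprz1, chr6:23001970-23001990: ctgataagGTACTtactggtc
Ptprz1, chr6:23002003-23002023: cttctgatGTACTttcatcta
Ptprz1, chr6:23002625-23002645: tgaaaaggATACTgatggtgt
Of these sites, 6 end in T, and each has a listed DRACH adenosine between 14 and 40 nt away.

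Another set, chosen after the values were seen, shows members of ACACA, the most frequent intronic member 5-mer. Both were listed in both libraries and lie on the plus strand.
Plcb1 intron, chr2:135118679-135118699: tctaagccACACAcacacaca
Gm32647 intron, chr7:94325345-94325365: tctgaaccACACAttgctaaa
The nearest listed DRACH adenosine is 34357 nt from the first and 196942 nt from the second.

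Adenosines in these 5-mers were seldom listed, but their rate depended strongly on which 5-mer they had. The listing rate is used here as the share of all adenosines of a given kind, on the strand of and within 50 nt of any listed site of a library, that were themselves listed. Each listed site lies in its own window and is counted. The rate over the class was 3.48% in cerebellum (3.38 to 3.58, 4352 of 125212) and 3.74% in cerebrum (3.67 to 3.8, 11449 of 306450). For background, 4.71% of all adenosines in the cerebellum windows and 4.67% in the cerebrum windows were listed, and outside DRACH the shares were 1.95% and 2.70%. The members thus sat above the background of adenosines outside DRACH and below that of all adenosines.

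DRACH adenosines had rates of 33.5% in cerebellum and 27.0% in cerebrum, 30 and 23.2 percentage points above the members. Of the other single-base neighbours of the motif, DRACG had 13.2% and 13% and CRACH 4.20% and 4.13%. Members were therefore the lowest of the 3 near-motif classes. The gap to CRACH was small, 0.720 points (0.459 to 0.993) in cerebellum and 0.390 points (0.215 to 0.571) in cerebrum, but members were lower on 18 and 17 of the 19 autosomes. Across single autosomes the members' rate ran from 2.98% to 4.08% in cerebellum and from 3.43% to 4.35% in cerebrum. All intervals cover counting error over sites only, not variation between animals.

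**Figure D1:**
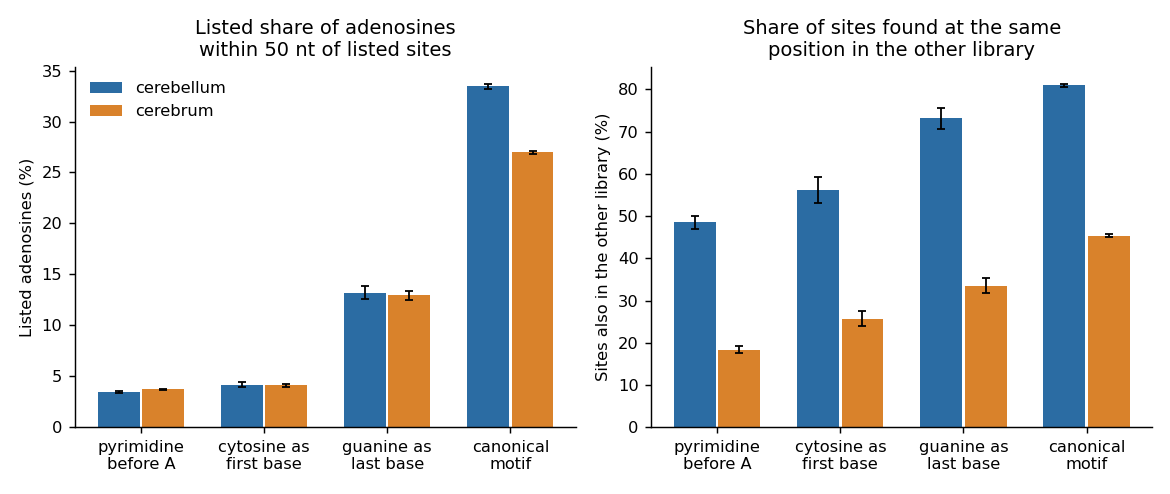
Left, listed adenosines as a percentage of all adenosines of each motif class within 50 nt of listed sites, and right, percentage of sites also listed at the same position in the other library, for cerebellum (blue) and cerebrum (orange) with 95% Wilson intervals as error bars. Members (pyrimidine before A) stand lowest in both panels, at 3.48% and 3.74% on the left and 48.5% and 18.4% on the right.

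A single 5-mer, GTACT, stood far above the rest of the class. It accounted for 2180 members (15.9%), and 24.2% of its adenosines were listed in cerebellum (22.9 to 25.4) and 18.6% in cerebrum (17.8 to 19.3). That was above the rate of DRACG as a class, by 10.9 and 5.59 points, and below that of DRACH by 9.31 and 8.39 points, with each of these differences in the same direction on all 19 autosomes. GTACT differs from GGACT, the DRACH 5-mer with the highest listing rate, only at -1. GGACT was listed at 70.7% and 64.6% in the same windows.

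GCACT followed at 8.85% in cerebellum and 8.05% in cerebrum, then ATACT at 8.18% and 6.08% and GTACA at 5.55% and 4.89%. These 4 were the only ones of the 18 5-mers above the rate of all adenosines in both libraries. At the other end, ATACC was listed at 1.10% and 1.21%. ACACA was the second most frequent member 5-mer, with 1457 sites, because it is common: 15415 of its adenosines lay in the cerebellum windows and 44843 in the cerebrum windows. Its rate was only 1.87% and 2.70%, at or below that of adenosines outside DRACH. TCACA, with 1116 members, had 2.14% and 4.24%. In all, 9 of the 18 5-mers exceeded the background outside DRACH in each library.

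The same outer bases that go with a high listing rate in DRACH went with a high rate in the members. At position -2, members with G were listed at 7.01% in cerebellum and 6.33% in cerebrum, against 2.60% and 2.86% with A and 2.16% and 3.11% with T. DRACH gave 51.9% and 44.3% with G, 27.6% and 21.6% with A and 21% and 16.4% with T. At position +2, members with T reached 6.77% and 6.05%, those with A 2.26% and 3.07% and those with C 1.32% and 1.97%. DRACH followed the same order at +2, with 51.9% and 42.3% for T, 24.7% and 20% for A and 16.4% and 14% for C.

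Over the 9 combinations of -2 and +2 bases, the mean rate with a pyrimidine at -1 ranked much as the mean rate with a purine (Spearman rho 0.917 in cerebellum and 0.80 in cerebrum, a description over 9 points from the same windows). Both purines exceeded both pyrimidines in 9 of 9 combinations in cerebellum and 8 of 9 in cerebrum. Between the pyrimidines, T at -1 had the higher pooled rate, 5.02% against 2.37% for C in cerebellum and 4.32% against 3.32% in cerebrum. This did not hold for each combination, since T exceeded C in 6 of 9 in cerebellum and 5 of 9 in cerebrum.

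Members differed from uncalled adenosines of the same 5-mers at bases that the rule did not use. Uncalled adenosines are those of the 18 5-mers within 50 nt of a listed site that were not listed themselves, here weighted to the 5-mer makeup of the members. At position -4, 48.2% of cerebellum members had an A against 30.1% of uncalled adenosines, and in cerebrum 42.0% against 33.3%. At position +4, 48.5% of cerebellum members had a T against 28.6%, and in cerebrum 42.5% against 28.3%. These were the widest gaps among the 16 flanking positions read, from -10 to -3 and from +3 to +10.

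At position +3 members had fewer A, 12.8% against 21.9% in cerebellum and 15.0% against 21.4% in cerebrum, and more G, 32% against 24.8% and 27.7% against 23.8%. In GTACT the gap in G was wider, with 40.9% of listed and 25.8% of uncalled adenosines carrying it in cerebellum and 40.7% and 25.9% in cerebrum. Canonical sites shared most of these gaps. DRACH sites had A at -4 in 40.6% against 26.1% in cerebellum and 39.6% against 27.7% in cerebrum, and T at +4 in 43.4% against 26.1% and 41.5% against 27.6%. By contrast, G at +3 exceeded its uncalled share by only 0.964 and 1.63 points in DRACH.

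**Figure D2:**
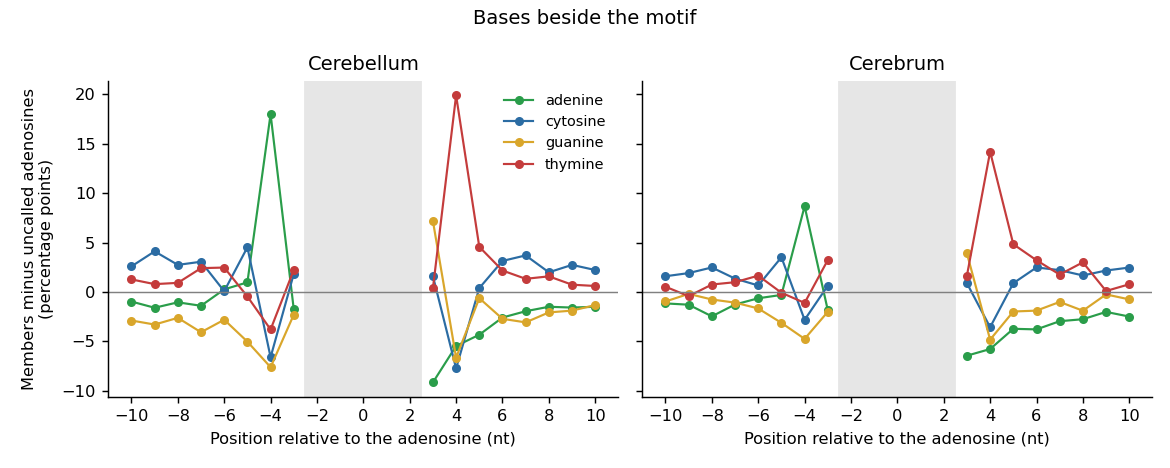
Difference in base composition, in percentage points, between members and uncalled adenosines of the same 5-mers (weighted to the members' 5-mers) at each position around the adenosine, with the 5-mer itself shaded. The highest points are A at -4 (18 points in cerebellum, 8.68 in cerebrum) and T at +4 (19.9 and 14.2).

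The A at -4 and the T at +4 went together with a several-fold higher listing rate. These positions were chosen after the base composition was seen, so the values describe the same sites in another way. With both bases, members were listed at 9.13% (8.61 to 9.69) in cerebellum and 7.58% (7.27 to 7.90) in cerebrum. With the A alone the rates were 3.58% and 3.39%, and with the T alone 4.52% and 4.86%. With neither they were 1.94% and 2.73%. The ratio of both to neither was 4.71 (4.34 to 5.11) in cerebellum and 2.77 (2.63 to 2.92) in cerebrum, and it was above 1 on all 19 autosomes in each. For DRACH the same ratio was 2.26 and 2.16.

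Where a canonical site was listed nearby, so that the RNA was expressed and had a call at that site, the ratio was larger. Only windows of 50 nt around listed DRACH sites were used for this. Members with both bases were then listed at 7.84% and 8.55% and those with neither at 0.859% and 1.18%, a ratio of 9.12 (7.92 to 10.5) in cerebellum and 7.21 (6.55 to 7.95) in cerebrum. GTACT with both bases reached 48.1% (100 of 208) in cerebellum and 48.4% (169 of 349) in cerebrum, against 12.9% and 15.4% with neither. Of the GTACT adenosines with both bases near a canonical site, close to 1 in 2 was therefore listed. For the 17 other 5-mers pooled, the rate was 6.30% and 7.01% with both bases and 0.451% and 0.706% with neither.

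**Figure D3:**
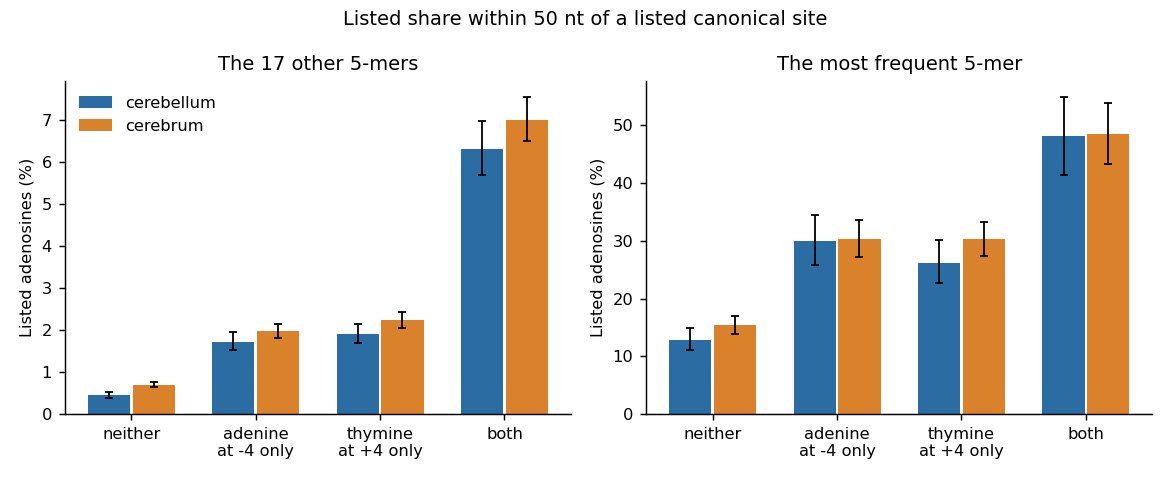
Listed adenosines as a percentage of all adenosines within 50 nt of a listed DRACH site, by the bases at -4 and +4, for the 17 other member 5-mers (left) and for GTACT (right), with 95% Wilson intervals as error bars. The bars rise from neither base (0.451% and 0.706% on the left, 12.9% and 15.4% on the right) to both bases (6.30% and 7.01%, 48.1% and 48.4%).

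The same contrast held for single 5-mers in windows of any listed site. GCACT was listed at 28.4% in cerebellum and 21% in cerebrum with both bases and at 3.42% and 4.20% with neither. ATACT was listed at 20.5% and 14.5% with both and at 2.85% and 2.54% with neither. ACACA moved less, from 1.43% and 2.39% with neither to 3.22% and 4.12% with both. Of all listed members, 23.1% in cerebellum and 17.8% in cerebrum had both bases, against 16.8% and 15.8% of DRACH sites.

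Members were shared between the tissues less often than canonical sites were. Of the cerebellum members, 48.5% (47.0 to 50.0) were listed at the same position and strand in cerebrum, and of the cerebrum members 18.4% (17.7 to 19.2) in cerebellum. The corresponding shares were 81.0% and 45.3% for DRACH, 73.2% and 33.5% for DRACG, 56.2% and 25.7% for CRACH and 20.1% and 5.60% for the remaining sites outside DRACH. Members lay 32.5 and 26.9 points below DRACH and 28.4 and 12.8 points above the remaining sites, in the same direction on 19 of 19 autosomes each time. The lower share from the cerebrum side goes with its list being more than 2 times as long, and neither share separates expression from methylation.

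Sharing followed several of the sequence features that went with the listing rate, though not all, and these were drawn from the same lists. GTACT members were shared at 74.3% and 41.2%, only 6.67 and 4.09 points below DRACH, and in cerebrum this last difference had its direction on only 13 of 19 autosomes. Without GTACT the class was shared at 40.2% and 13.9%. Members ending in T were shared at 60.4% and 28.5%, those ending in A at 27.7% and 7.78% and those ending in C at 29.3% and 8.69%. A and C thus differed little here, although members with A had the higher listing rate. ACACA members were shared at 13.9% (40 of 288) and 3.31% (40 of 1209). Members with both flanking bases were shared at 64.4% and 31.7%, those with neither at 38.1% and 11.5%.

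Sharing also differed by region and neighbourhood. Within 50 nt of a DRACH site listed in both libraries, members were shared at 69.1% and 49.2%. Coverage in both tissues sufficed to call that DRACH site, but coverage at the member itself is not known. In these windows GTACT reached 83.9% and 62.3% and CRACH 65.2% and 46.9%. Members in coding sequence were shared at 64.3% and 28.8% and those in 3′ UTRs at 56.3% and 26.6%, against 85.8% and 48.5% and 82.1% and 49.4% of DRACH sites. Intronic members were seldom shared, 43 of 770 (5.58%) in cerebellum and 43 of 2760 (1.56%) in cerebrum, while intronic DRACH sites were shared at 39.3% and 13.4%. This was not particular to the class, since the remaining intronic sites outside DRACH were shared at 6.51% and 1.85%. Intronic GTACT members were few and were shared at 38.2% (13 of 34) and 11.9% (13 of 109).

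**Figure D4:**
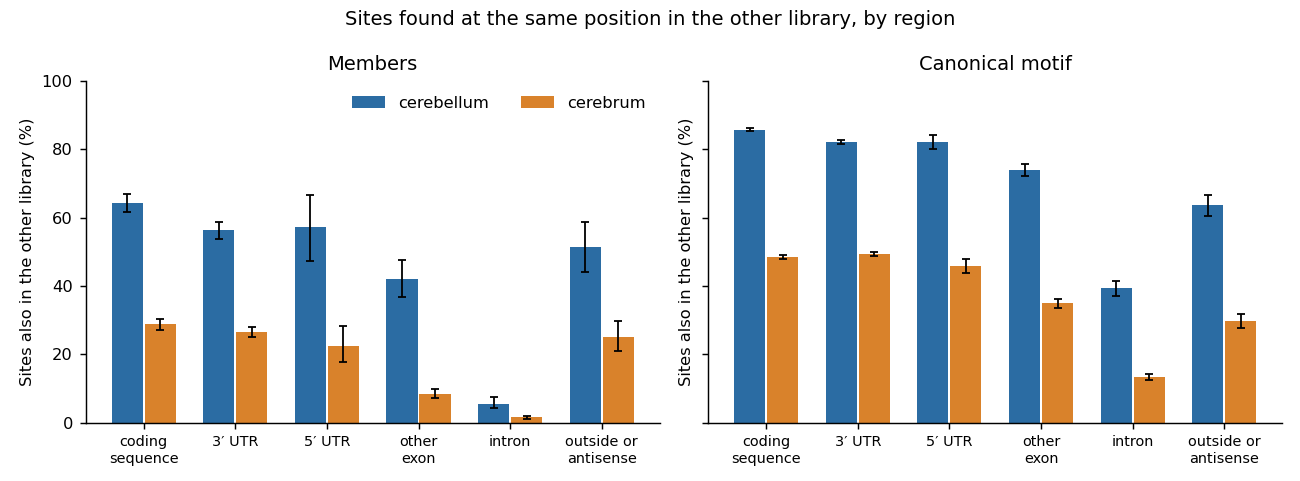
Percentage of members (left) and of DRACH sites (right) that were listed at the same position in the other library, by annotated region, for cerebellum (blue) and cerebrum (orange) with 95% Wilson intervals as error bars. Intron bars are the lowest in both panels, 5.58% and 1.56% for members and 39.3% and 13.4% for DRACH.

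Most members lay on mature mRNA, but a larger part than among canonical sites was intronic. Of the 13691 members, 7952 fell on exons of coding transcripts, 3487 in introns, 1795 on exons of other transcripts, 328 outside genes and 129 antisense to a gene. On coding transcripts, 4321 were in 3′ UTRs, 3347 in coding sequence and 284 in 5′ UTRs. Coding exons held 70.8% of cerebellum members and 58.6% of cerebrum members, against 63.6% and 48.6% of uncalled adenosines of the same 5-mers and 89.2% and 85.3% of DRACH sites. Introns held 17.7% and 24.1% of members, 25.6% and 36.8% of uncalled adenosines and 3.99% and 6.56% of DRACH sites.

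Pooled over the class, the shift of members towards coding exons went with GTACT, in cerebellum almost wholly and in cerebrum in part. In cerebellum 91.3% of its listed adenosines lay on coding exons against 60.4% of its uncalled ones. Without GTACT the class was at 64.2% in cerebellum against 63.6% for uncalled adenosines, and at 52.9% against 48.7% in cerebrum. This pool held unlike 5-mers, so it does not show that GTACT alone was shifted. Over both libraries, coding exons held 82.4% of GCACT, 74.9% of GTACA and 74.7% of ATACT members. They held 44.2% of TCACA, 39.8% of TTACA and 26.6% of ACACA members. Listing rates by region again set GTACT apart from the class as a whole. Over the class the rate was 3.84% and 4.46% in coding exons and 2.45% and 2.48% in introns, a much narrower gap than the 40.2% and 37.6% against 8.46% and 6.91% of DRACH. GTACT was listed at 37.9% and 36.6% in coding sequence, at 27.9% and 25.7% in 3′ UTRs and at 4.11% and 3.50% in introns.

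ACACA was the most intronic of the frequent 5-mers. Over both libraries, 52.0% of its members were in introns and 26.6% on coding exons, and 63.3% lay in sequence that the genome marks as repeats. GTACT had 5.96% in introns, 86.4% on coding exons and 7.57% in repeats. In an alternating C and A run of at least 8 nt, as in the Plcb1 sequence printed above, lay 50.7% of listed ACACA adenosines in cerebellum and 50.2% in cerebrum, against 37.1% and 45.4% of uncalled ones. Pairs of members 2 nt apart, which such runs allow, numbered 21 in cerebellum and 95 in cerebrum, more than at any other distance up to 20 nt. The pairs of adenosines in member 5-mers available at each distance were not counted, so these numbers alone show no excess. How reads from such runs map was not tested. Over the whole class repeats held 16.7% and 20.8% of members, 18% and 21.9% of uncalled adenosines and 8.62% and 8.80% of DRACH sites.

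In windows of listed DRACH sites the 5-mers separated further. ACACA was listed at only 0.199% (14 of 7052) in cerebellum and 0.569% (72 of 12644) in cerebrum there and TCACA at 0.202% and 0.596%. GTACT was listed at 22.0% and 24.3%, ATACT at 8.19% and 8.16% and GCACT at 6.37% and 6.98%. The whole class stood at 2.15% and 2.5%, below DRACG at 9.49% and 11.4% and CRACH at 2.79% and 3.23%.

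Shared members were less often intronic and less often near junctions than members found in 1 tissue. Of the shared members, 2.04% were intronic, against 32.4% of those only in cerebellum and 29.1% of those only in cerebrum. Within 100 nt of a splice junction lay 5.49% of shared members on coding transcripts, against 11.1% and 17% of those found in cerebellum or cerebrum only. Within 200 nt of the stop codon lay 25.4% of shared members, against 19.7% and 18.2%. DRACH sites showed the same contrast. Of shared DRACH sites 1.93% were intronic, against 12.7% and 10.4% of those found in cerebellum or cerebrum only. Near junctions their shares were 6.01% against 10.9% and 10.3%, and near the stop codon 22.6% against 18.8% and 21.5%.

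Around the stop codon, members followed the profile of canonical sites at a far lower level. On transcripts with a listed site, 1.61% of all adenosines in member 5-mers in the first 200 nt of the 3′ UTR were listed in cerebellum (489 of 30329) and 2.06% in cerebrum (883 of 42787). Over the whole transcript the shares were 0.490% and 0.816%. The rate fell with distance to 0.282% and 0.582% at 1000 to 1200 nt and was 0.820% and 1.24% in the last 200 nt of the coding sequence. DRACH peaked in the same bin, at 18% and 21.3% over a whole-transcript level of 5.82% and 7.61%, as did GTACT, at 15.1% and 17% over 4.10% and 5.42%.

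**Figure D5:**
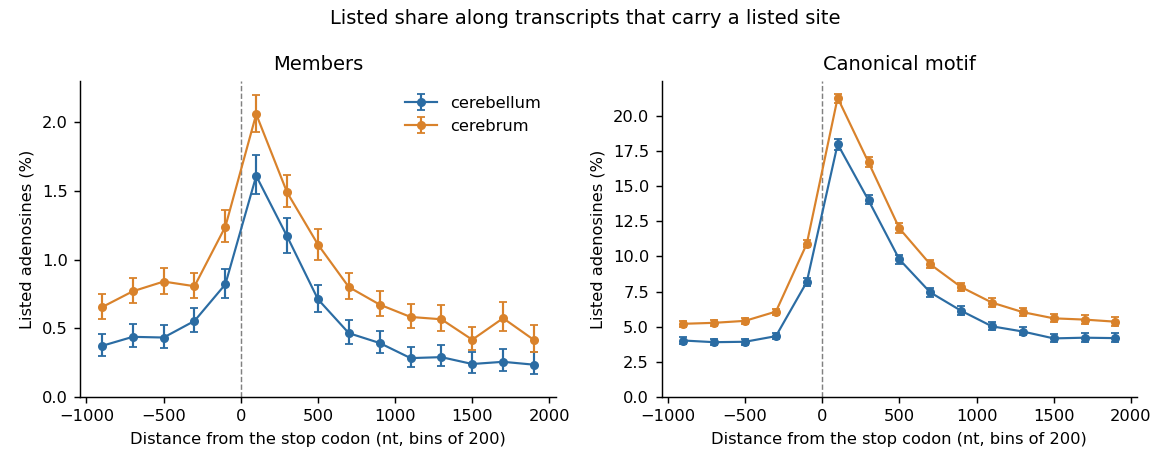
Listed adenosines as a percentage of all adenosines of members (left) and DRACH (right) on transcripts with a listed site, in bins of 200 nt by distance from the stop codon (dashed line), for cerebellum (blue) and cerebrum (orange) with 95% Wilson intervals as error bars. Both classes peak from 0 to 200 nt downstream, members at 1.61% and 2.06% and DRACH at 18% and 21.3%.

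Against uncalled adenosines within 50 nt, which share the neighbourhood of listed sites, the enrichment at the stop codon was modest. Of the members on coding transcripts, 23.1% in cerebellum and 20.2% in cerebrum lay within 200 nt of it, against 18.9% and 17%. The folds were 1.23 (1.15 to 1.31) and 1.19 (1.13 to 1.25), above 1 on 14 and 18 of 19 autosomes. GTACT had folds of 1.58 and 1.68 and DRACH 1.23 and 1.36. The coding part of the last exon held 19.7% and 18% of members against 14.9% and 13.9% of uncalled adenosines, folds of 1.32 and 1.30.

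In 3′ UTRs as a whole members were not in excess. They held 54.9% of cerebellum members against 59.8% of uncalled adenosines, a fold of 0.919 (0.889 to 0.949, below 1 on 16 of 19 autosomes), and 53.4% against 58.3% in cerebrum, a fold of 0.915 (0.894 to 0.936, 18 of 19). Against uncalled adenosines anywhere on the transcripts the folds were 1.02 and 1.00, so the deficit depended on the set compared. Coding sequence held 42.0% and 43% of members against 37.8% and 39.0%, folds of 1.11 and 1.10. For GTACT the 3′ UTR folds were 0.824 and 0.821 and the coding sequence folds 1.39 and 1.38.

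Near splice junctions GTACT members were sparse against uncalled adenosines within 50 nt of listed sites. The rest of the class differed little from these in cerebellum and was in slight excess in cerebrum. Within 100 nt of a junction of the assigned transcript lay 7.76% of cerebellum members and 13.8% of cerebrum members, against 10.7% and 15.4% of uncalled adenosines, folds of 0.722 and 0.898. GTACT members were at 4.24% and 5.72% against 12.7% and 16.7%, folds of 0.335 (0.243 to 0.463) and 0.342, below 1 on 19 of 19 autosomes. DRACH had folds of 0.452 and 0.383. Without GTACT the members' folds were 0.876 and 1.07, so the direction in cerebrum turned. At 50 nt the class had folds of 0.777 (0.652 to 0.925) in cerebellum and 0.976 (0.90 to 1.06) in cerebrum, where the interval includes 1. Without GTACT the folds at 50 nt were 1.05 (0.874 to 1.26) and 1.24 (1.14 to 1.34), the latter above 1 on 15 of 19 autosomes. DRACH had 0.257 and 0.239 at that distance. Against uncalled adenosines anywhere on the transcripts, of which 30.3% and 31% lay within 100 nt of a junction, the whole class had folds of 0.256 and 0.446. In internal exons shorter than 400 nt lay 5.19% and 10.5% of members, 1.65% and 2.47% of GTACT members and 3.15% and 4.21% of DRACH sites. Without GTACT these exons held 6.81% and 13.2% of members, against 6.96% and 11.5% of uncalled adenosines.

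The listing rate of members varied less with the distance to a canonical site than with the bases around them. At 1 to 10 nt from a listed DRACH adenosine 2.42% of the adenosines in member 5-mers were listed in cerebellum and 2.68% in cerebrum. At 11 to 25 nt the rates were 2.5% and 2.93%, and at 26 to 50 nt 1.70% and 2.06%. These rates were not weighted for 5-mer makeup. The nearest bin includes adenosines 2 nt downstream of a DRACH site, whose 5-mer the overlap fixes as ACACH. Those were listed at 0.724% and 1.30%. GTACT fell from 29.4% and 28.3% at 1 to 10 nt to 17.2% and 18.6% at 26 to 50 nt. Of all listed members, 9.95% in cerebellum and 7.21% in cerebrum had a listed DRACH site within 10 nt, against 10.1% and 10.5% of DRACH sites and 14.4% and 10.1% of uncalled adenosines, whose windows need a listed site by construction. Another member lay within 10 nt of 3.19% and 3.23% of them.

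Codon position and predicted structure gave small differences. Among members in coding sequence, the adenosine was the first base of its codon in 36.2% in cerebellum and 37% in cerebrum, the middle base in 35.7% and 34.4%, and its last base in 28.1% and 28.6%. Uncalled adenosines weighted to the same 5-mers gave 38.3% and 37.5%, 35.0% and 35.2%, and 26.6% and 27.3%. Of 9 members within 1 nt of a splice junction, all 9 kept a member 5-mer after splicing.

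Folding 50 nt on either side at 37 °C gave members a mean probability of being unpaired of 0.655, against 0.614 at the nearest uncalled adenosine of the same 5-mer in the same exon, over 696 pairs. The difference of 0.0418 (0.00988 to 0.0737) was small beside its SD of 0.430 over pairs, was positive on 13 of 19 autosomes and had its direction in 54.2% of pairs. For 74 GTACT pairs it was 0.0577 (-0.0504 to 0.166), and for 472 DRACH pairs 0.0210 (-0.0218 to 0.0637), both with intervals that include 0.

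At the level of genes, members were spread thinly over mRNAs that also carried canonical sites. Of the 11915 coding genes with a listed site on their exons, 4402 (36.9%) held a member, and 3981 of these (90.4%) held a DRACH site too. A single member was found in 2629 genes, 5 or more in 231 and 10 or more in 14. A GTACT member was found in 1480 genes, and 1300 had a member listed in both tissues. The share of genes with a member rose with the number of DRACH sites, from 22.5% of genes with 1 to 5 to 55.6% with 6 to 20, 88.7% with 21 to 50 and 97.9% with 51 or more. Among genes with listed sites but no DRACH site it was 18.9%.

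The gene with the most members was Nlgn1. It encodes a postsynaptic adhesion protein that binds neurexins and had 15 members, 8 in cerebellum and 12 in cerebrum, with 5 in both. They fell in all parts of its mRNA, 3 in the 5′ UTR, 6 in the coding sequence and 6 in the 3′ UTR, beside 46 DRACH sites. Of its members, 6 had the 5-mer ATACT. Fat4, a giant protocadherin, had 13 members beside 160 DRACH sites, Asxl3, a chromatin protein, 13, and Zfp292, a zinc finger protein, 13 beside 91. Of the Zfp292 members, 6 were GTACT.

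The glutamate receptor gene Grm5, the sodium-calcium exchanger gene Slc8a1 and the teneurin gene Tenm3 had 12 each. Ptprz1 had 11, all in coding sequence, with 10 in cerebellum and 8 in cerebrum. Rnf139, which encodes a ubiquitin ligase, also had 11, all in coding sequence, beside only 20 DRACH sites. Fem1c, which encodes a substrate receptor of a ubiquitin ligase, had 10, as did other genes after it in alphabetical order.

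Counted by members listed in both tissues, Ptprz1 led with 7. Ranbp6, an importin family gene, had 6 of its 7 members in both, all in coding sequence. Zfp292 and Zkscan1 had 6 each, and all 9 members of Zkscan1 lay in its 3′ UTR. Dmxl2, Fat4, Grm5, Nlgn1, Ppm1l and Rev3l had 5 each. Rev3l, the catalytic subunit of DNA polymerase zeta, had 6 GTACT sites among its 8 members. All these genes carried at least 34 DRACH sites.

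A small group of 421 genes held a member and no DRACH site, and 384 of these had a single member. The highest count, 3 members each, was found in Adamts10, Asah2, Olfr843 and Vmn2r53. Atf6 had 2 and was named by alphabetical order among the genes with 2. The 3 members of Asah2 were all ACACA in the 3′ UTR, and 2 of the 3 in Adamts10 were ACACA. Olfr843 and Vmn2r53 belong to large receptor families whose genes resemble each other, so the assignment of their reads is uncertain. Atf6 had both of its members in cerebrum only.

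The m6A machinery itself carried members. Of 9 writer genes, 6 had one, with 18 members in all beside 178 DRACH sites. Over all coding genes with a listed site the share with a member was 36.9%. That share was 55.6% at 6 to 20 DRACH sites and 88.7% at 21 to 50. Rbm15, which recruits the complex to RNA, had 6, the scaffold gene Virma 5 and the adaptor gene Wtap 3. Cbll1 had 2, both GTACT and both listed in each tissue. Mettl3, Mettl14 and Mettl16 had 0. Of 12 reader and eraser genes, 8 had a member, 14 in all. The cytoplasmic readers Ythdf3 and Ythdf1 had 4 and 3, of which 3 and 3 were GTACT. The list as a whole had 12.6% members among members and DRACH sites, and the writers 9.18%, against 8.81% over all coding genes.

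The neuronal and chromatin lists were read against the 36.9% of coding genes with a listed site that held a member, a share that rises to 88.7% at 21 to 50 DRACH sites. Of 22 synaptic adhesion genes 17 had a member (74 members, 23 in both tissues), and of 20 axon guidance genes 16 (38 members). Of 20 ion channel genes 17 had one (48 members) and of 20 chromatin regulators 18 (57 members). A listed site was found in 21 synaptic adhesion genes, 19 axon guidance genes and all 20 of each other list. Members made up 9.19%, 8.33%, 8.51% and 6.57% of members and DRACH sites in these lists, against 8.81% over all coding genes. The chromatin list was thus the lowest of the 4. Among ion channels, the M-current gene Kcnq3 had the most, 10 members, 6 in cerebellum and 8 in cerebrum. Among chromatin regulators, the histone methyltransferase gene Kmt2a had 7. Of 16 ribosomal protein genes, 12 had a listed site and Rpl5 had the 1 member. The list held 12 DRACH sites, so members made up 7.69%, near the 8.81% over all coding genes.

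The 13 forebrain marker genes had 16 members in cerebrum and 0 in cerebellum, in 8 genes. Over the whole class, 68.2% of members were listed in cerebrum only. Bcl11b, a transcription factor of deep-layer cortical neurons that Purkinje cells also express, had 4 of these, beside 54 DRACH sites in cerebrum and 22 in cerebellum. The 12 hindbrain genes had 4 members in cerebellum and 2 in cerebrum, in En1, Gbx2, Lhx1 and Zic1. Both members of Gbx2, which patterns the anterior hindbrain, were listed in cerebellum and 1 of them in cerebrum.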

How the data were processed

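The deposited files list one genomic position and strand per m6A site (unit: other, a position) for each library. Per the paper's methods, the authors mapped reads to mm10 and to an mm10 copy carrying PWK bases and called sites with GLORI-tools. They kept the union of sites above a minimum rate and read number. For its high-confidence sites the paper further required overlap with m6A-seq peaks. That step was not applied here, and the lists used hold more sites than that set. No rates, read counts or alleles were in the lists used here. Because PWK bases were not analysed here, a member on GRCm38 can have another 5-mer on the PWK allele. Each tissue was taken from its label.

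The 5-mers were read from GRCm38 on the site strand. Regions came from GENCODE M21, which is not the release the authors named. Each position was assigned to the longest complete coding isoform with an exon there, so positions of a gene can fall on different isoforms. Windows were 50 nt, shares have 95% Wilson intervals, differences Newcombe intervals and ratios log intervals. The unpaired probability was computed with ViennaRNA 2.7.2. Python 3.11.15, numpy 2.4.6 and pandas 2.3.3 were used. The scripts were tested on simulated data (6 of 6 checks passed). The listing and sharing rates of members, GTACT and DRACH, and the comparisons given with a number of autosomes, were recomputed on the 19 autosomes. The alternatives were other windows, other reference sets, other isoforms and repeat-free sequence. The members, lists and tests were chosen with earlier results of these data known. Named genes were the 10 with most members, the 10 with most members in both libraries and the 5 with most members among genes without a DRACH site, plus list genes with a member, with ties in alphabetical order.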

Additional observations from a re-analysis of the deposited data

How the results depend on the processing

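Values are given for cerebellum, then cerebrum. The listing rate of members moved to 5.92% and 6.43% with windows of 25 nt, to 2.07% and 2.22% with 100 nt, to 3.84% and 4.46% in coding exons and to 2.15% and 2.5% in windows of DRACH sites. Sharing moved to 59.7% and 27.4% in coding exons, to 51.9% and 20.7% without repeats and to 69.1% and 49.2% near DRACH sites listed in both libraries. The 3′ UTR fold became 1.02 and 1.00 against adenosines anywhere on the transcripts and 0.851 and 0.870 with weighting to the member 5-mers. The stop codon fold became 2.56 and 2.07 and 1.33 and 1.25 under the same choices. The share near a junction was 4.03% and 8.46% at 50 nt and 18.2% and 22.7% at 200 nt. At 50 nt its fold over uncalled adenosines was 0.777 and 0.976, and at 100 nt against whole transcripts 0.256 and 0.446. The share of members with a DRACH site within 25 nt was 24.1% and 17.8%. The cause was not tested beyond what each choice changes by construction. The other 14 alternative values moved by less than their interval. The DRACH-window, near-DRACH sharing, weighting, whole-transcript stop codon and whole-transcript junction alternatives were chosen after seeing the data. No paired analysis was possible because there is 1 library per tissue. With positions alone, depth limits every share in a way that cannot be measured here.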
